A study of Homo sapiens with 18 samples.

Results

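Expression of 60 genes of mitosis and of the G2/M transition was followed in IMR90 cells, primary human lung fibroblasts, through pre-incubation with hyaluronan (HA) and exposure to an oxidant. The genes were chosen by name, with no threshold on their values, but with earlier results of these data known. The rule took the rows of the deposited table whose symbol stood in a list of 60, all of which were found among its 56269 genes, SGOL1 and SGOL2 under their newer symbols SGO1 and SGO2. All 60 were also among the 13686 genes tested, which were those with a mean normalized count of at least 10 over the 18 libraries. For the description they were placed in 10 groups by the known role of their proteins.

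The cells were grown in medium with 15% FBS, and poly-A RNA was sequenced from 6 groups of 3 libraries each. The PBS group was pre-incubated for 6 h with PBS. The cNSF group received 20 μg/ml of HA made by naked mole-rat skin fibroblasts and heated together with hyaluronidase that was already inactive, so that its chains stayed long. The fNSF group received the same amount of this HA after partial digestion with active hyaluronidase, which shortened the chains. In the PBS_tBHP, cNSF_tBHP and fNSF_tBHP groups, the same pre-incubations were followed by removal of the medium and by 1 h with 200 μM tert-butyl hydroperoxide (tBHP), and the cells were collected 6 h after tBHP was added. Cells without tBHP were collected at the end of the pre-incubation, so tBHP, the change of medium and the later collection cannot be told apart. All libraries came from 1 cell strain, and the labels name no separate cultures, so the p-values measure the spread between these libraries.

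Mitotic genes are transcribed mainly from late S phase to mitosis. In resting or arrested cells the DREAM complex represses many of them, while in cycling cells the MuvB core of this complex joins MYBL2 and then FOXM1 to activate them. Their promoters often hold the CHR, an element contacted by MuvB, and CCAAT boxes, which bind NF-Y. CDKN1A encodes p21, an inhibitor of cyclin-dependent kinases known to favour DREAM assembly.

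Between 20261103 and 26287660 reads were counted on genes per library. All 10 fibroblast markers had a mean of at least 10 normalized counts, with a summed value of 594900 to 616400 without tBHP and 458900 to 722500 after it. EPCAM, CDH1 and KRT5 of the 5 epithelial markers had means under 10, and the summed epithelial level was 1904 to 2152 without tBHP and 1158 to 2041 after it. The 3 endothelial markers summed to 3.73 to 14.8 without tBHP and 13.1 to 25.1 after it, and the 3 leukocyte markers to 3.73 to 6.05 and 4.38 to 19.0. Reads on mitochondrial genes made up 2.48% to 2.64% without tBHP and 2.69% to 3.51% after it, the highest share being in replicate 2 of fNSF_tBHP. Replicates lay farther apart after tBHP, with a median SD of the 60 genes inside groups of 0.145 on the log2 scale, compared with 0.0435 before it.

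Before tBHP the 60 transcripts were all present at substantial levels. Per kilobase of the longest annotated transcript, the mean normalized count without tBHP was highest for CKS2 (3024), CDC20 (2803) and PTTG1 (2723), and lowest for SGO1 (161) and KIF14 (180). The 60 genes together had 194688 to 202234 normalized counts in the 9 libraries without tBHP and 117368 to 139033 in the 9 libraries after it, with no overlap.

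The first question was how mitotic transcripts changed when the fibroblasts met the oxidant. In PBS cells 51 of the 60 genes fell after tBHP and 3 rose, while 26.9% of all genes tested fell and 24.2% rose (limma on log2(normalized count + 1), Benjamini-Hochberg adjusted p under 0.05). The median log2 change was -0.71 for the 60 genes and 0.0043 for all genes tested. In 52 of them the 3 libraries after tBHP all lay below the 3 without it, which held for 32% of all genes. Fewer cells in G2 or mitosis and less of these RNAs per cell cannot be told apart in bulk libraries. The falls reached from -1.89 for ASPM to -0.22 for PTTG1 among the genes that passed, so that the members differed widely among themselves. The changes also followed the GC content of the transcripts, as described further on. With the trend with GC content and length taken out of every library, 19 of the 60 changes in PBS cells came closer to 0 by over 1.5 times on the log2 scale, 6 moved away from 0 by as much and 3 turned their sign. In cNSF cells these were 16, 5 and 4 genes, and in fNSF cells 4, 6 and 2.

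The same was seen in cells pre-incubated with either HA. In cNSF cells 49 genes fell and 2 rose (26.8% and 24% of all genes tested), with a median of -0.67. In fNSF cells 51 fell and 1 rose (22.7% and 19.2% of all genes), with a median of -0.66. A total of 47 genes (78.3%) fell in all 3 pre-incubations, compared with 17.9% of all genes tested, and only CKS1B rose in all 3, compared with 14.6%. CDC25C, UBE2C and FOXM1 passed the threshold in none of the 3. Across the 60 genes the changes kept nearly the same order, with a Spearman rho of 0.975 between PBS and cNSF cells, 0.924 between PBS and fNSF cells and 0.944 between cNSF and fNSF cells. Across all genes tested the values were 0.888, 0.833 and 0.831. These pairs share no libraries, but their changes all follow the GC content of the transcripts described further on, and the genes are not independent replicates.

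**Figure D1:**
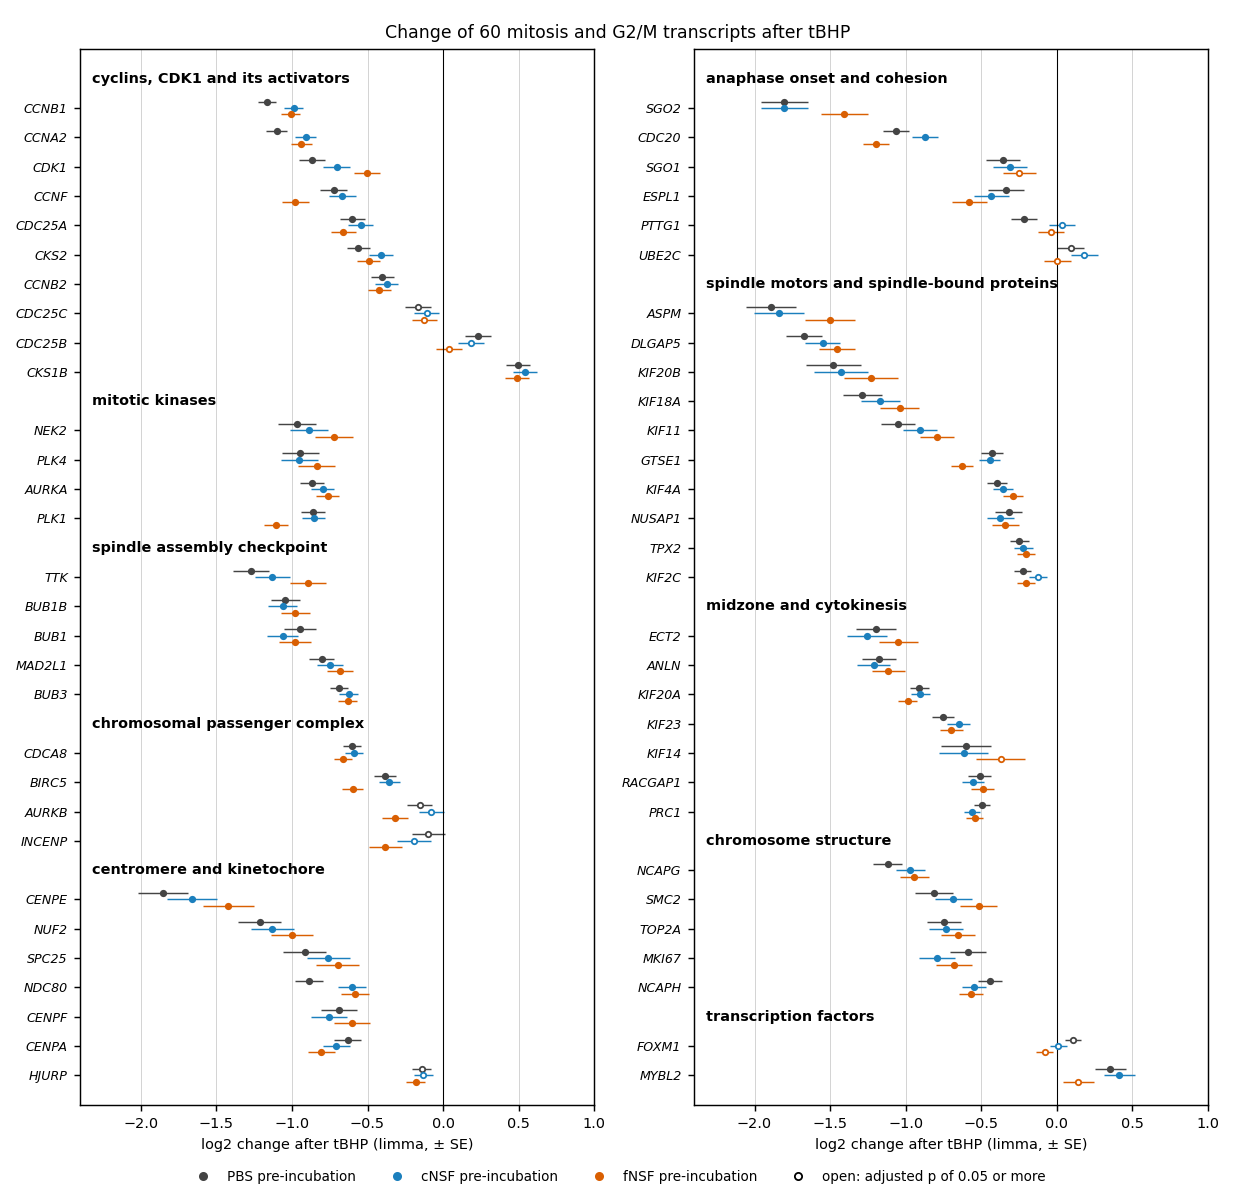
log2 change after tBHP (x axis, limma, ± SE from 3 libraries against 3) of each of the 60 genes, grouped by role, in cells pre-incubated with PBS (grey), cNSF (blue) or fNSF (orange). Filled points passed the adjusted p threshold of 0.05, and most points lie left of 0 in all 3 colours, with CKS1B on the right.

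Of the 10 genes that encode cyclins, CDK1 and its activators, 7 fell in each pre-incubation. CCNB1 encodes cyclin B1, the partner of CDK1 that drives entry into mitosis. It had 5755, 5601 and 5498 normalized counts in the PBS libraries, 5865, 5662 and 5587 in cNSF and 5806, 5759 and 5659 in fNSF. After tBHP these were 2388, 2538 and 2593, 2669, 2959 and 3008, and 3023, 2863 and 2689. All 9 libraries after tBHP lay below all 9 without it, and the mean fell to 44.6% of its earlier level in PBS cells (log2 change -1.16, SE 0.062, limma adjusted p = 9.23e-11), 50.5% in cNSF cells and 49.8% in fNSF cells. The log2 changes of CCNA2, the cyclin A2 gene, were close to this, at -1.10 in PBS cells, -0.91 in cNSF cells and -0.94 in fNSF cells. CDK1, the kinase that these cyclins activate, changed by -0.87 in PBS cells, -0.70 in cNSF cells and -0.50 in fNSF cells. With the trend removed CDK1 had -0.40, -0.38 and -0.31 in the same order. CCNB2, which encodes the other B-type cyclin of mitosis, fell less, by 0.40 on the log2 scale in PBS cells. CCNF, CDC25A and CKS2 completed the 7, with log2 changes of -0.72, -0.60 and -0.56 in PBS cells. CKS2 had -0.30 there after removal of the trend.

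The remaining 3 genes of this group took another course. CKS1B encodes a small subunit of CDK complexes that also helps SKP2 to mark p27 for destruction. Its normalized counts were 987, 1046 and 997 in PBS, 1036, 987 and 1102 in cNSF and 1048, 1022 and 1031 in fNSF libraries, and 1352, 1448 and 1476, then 1387, 1426 and 1762, and 1474, 1404 and 1476 after tBHP in the same order. The 9 libraries after tBHP were all higher, and CKS1B rose by log2 changes of 0.50 in PBS cells, 0.54 in cNSF cells and 0.49 in fNSF cells (adjusted p = 6.54e-05, 2.86e-05 and 9.88e-05). Its closest relative CKS2 went the other way in all 3. CDC25B, a phosphatase that activates CDK1 at the centrosome, rose in PBS cells (0.23, adjusted p = 0.0314), with 0.18 and 0.039 in cNSF and fNSF cells, neither of which passed. Once the trend with the GC content and length of transcripts, described further on, was removed from every library, CDC25B turned negative (-0.049, -0.10 and -0.051 in PBS, cNSF and fNSF cells), and it then passed as a fall in cNSF cells. CDC25C, a related phosphatase, had log2 changes of -0.17 in PBS cells, -0.11 in cNSF cells and -0.12 in fNSF cells, none of which passed. After removal of the trend they were -0.22, -0.20 and -0.23, and all 3 passed.

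The 4 mitotic kinases, PLK1, PLK4, AURKA and NEK2, fell in every pre-incubation. PLK1, which acts on centrosomes, kinetochores and the cleavage site, had 4275, 4196 and 4052 normalized counts in PBS libraries and 2381, 2307 and 2212 after tBHP. In cNSF libraries it went from 4644, 4297 and 4416 to 2417, 2519 and 2435, and in fNSF libraries from 4561, 4364 and 4235 to 2151, 1742 and 2258. The groups did not overlap, and the log2 changes were -0.86 in PBS cells, -0.86 in cNSF cells and -1.10 in fNSF cells. NEK2, a kinase that separates the centrosomes, changed by -0.97 in PBS cells, -0.88 in cNSF cells and -0.72 in fNSF cells. PLK4, the kinase of centriole duplication, and AURKA, the kinase of spindle poles, fell by 0.95 and 0.87 on the log2 scale in PBS cells. PLK4 had -0.52 in PBS and -0.58 in cNSF cells with the trend removed.

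All 5 genes of the spindle assembly checkpoint, which delays anaphase until chromosomes are attached, fell in the 3 pre-incubations. TTK, the kinase at the head of the checkpoint, had 1412, 1397 and 1491 normalized counts in PBS libraries and 528, 664 and 594 after tBHP. The corresponding values were 1276, 1396 and 1431 and 648, 625 and 599 in cNSF, and 1438, 1564 and 1469 and 789, 1006 and 649 in fNSF libraries. TTK had the largest fall of the group in PBS cells, and its log2 changes were -1.27 in PBS cells, -1.13 in cNSF cells and -0.89 in fNSF cells. BUB3, an adaptor that holds BUB1 and BUB1B at kinetochores, fell least in PBS cells, with log2 changes of -0.69 in PBS cells, -0.63 in cNSF cells and -0.63 in fNSF cells. BUB1, BUB1B and MAD2L1 lay between these, at -0.95, -1.04 and -0.80 in PBS cells. MAD2L1 had -0.44 in PBS and -0.38 in cNSF cells with the trend removed, and BUB3 had -0.43 and -0.28.

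The chromosomal passenger complex, in which the kinase AURKB is carried to centromeres and then to the midzone by INCENP, BIRC5 and CDCA8, gave different calls for its subunits. CDCA8, the borealin subunit, fell by log2 changes of -0.60 in PBS cells, -0.59 in cNSF cells and -0.66 in fNSF cells, and BIRC5, the survivin subunit, by -0.39 in PBS cells, -0.36 in cNSF cells and -0.60 in fNSF cells. INCENP, the scaffold, had log2 changes of -0.10 in PBS cells, -0.19 in cNSF cells and -0.38 in fNSF cells, and AURKB of -0.15 in PBS cells, -0.077 in cNSF cells and -0.32 in fNSF cells. These 2 genes passed only in fNSF cells (adjusted p = 0.00962 and 0.00536), and the difference of their response from that in PBS cells did not pass (limma adjusted p = 0.667 and 0.691). INCENP had 1930, 1927 and 1929 normalized counts in PBS libraries and 2020, 1717 and 1689 after tBHP, where replicate 1 lay above the libraries without tBHP. With the GC and length trend removed all 4 genes passed as falls in all 3 pre-incubations, INCENP with -0.39, -0.47 and -0.46 and AURKB with -0.41, -0.43 and -0.50 in PBS, cNSF and fNSF cells.

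The 7 centromere and kinetochore genes all fell in fNSF cells, and 6 of them in PBS and in cNSF cells. CENPE encodes a kinesin of the kinetochore that brings chromosomes to the spindle equator. Its normalized counts were 3055, 3132 and 3134 in PBS, 2734, 2930 and 2899 in cNSF and 2864, 3139 and 3158 in fNSF libraries. After tBHP they were 656, 1066 and 905, then 987, 937 and 792, and 1069, 1564 and 884. Replicate 2 was the highest library of fNSF_tBHP, but it too was well below every library without tBHP. CENPE fell to 28.2%, 31.7% and 38.4% of its earlier mean in PBS, cNSF and fNSF cells (log2 -1.85, -1.66 and -1.42). CENPF, a large protein of the outer kinetochore, had log2 changes of -0.69 in PBS cells, -0.76 in cNSF cells and -0.60 in fNSF cells. NUF2, NDC80 and SPC25, subunits of the NDC80 complex that grips microtubules, fell by 1.21, 0.89 and 0.91 on the log2 scale in PBS cells, and CENPA, the centromeric histone H3 variant, fell by 0.63. HJURP, the chaperone that loads CENPA, had the smallest values of the group, -0.14 in PBS cells, -0.13 in cNSF cells and -0.18 in fNSF cells, and passed only in fNSF cells (adjusted p = 0.0244), a call that was lost in several alternatives. With the GC and length trend removed it passed in all 3 (-0.22, -0.20 and -0.28). CENPF then had -0.39, -0.35 and -0.41 in PBS, cNSF and fNSF cells. NDC80 had -0.56 in PBS and -0.38 in cNSF cells, SPC25 -0.60 in PBS cells and CENPE -1.08 in cNSF cells, likewise with the trend removed.

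The 6 genes of anaphase onset and cohesion differed widely among themselves in PBS cells. CDC20 encodes the activator of the anaphase-promoting complex (APC/C). It had 5290, 5024 and 4773 normalized counts in PBS libraries and 2608, 2235 and 2380 after tBHP, 5108, 4885 and 4828 and 2653, 2656 and 2799 in cNSF, and 5143, 4838 and 4941 and 2122, 1896 and 2536 in fNSF. Every library after tBHP was lower, and the log2 changes were -1.06 in PBS cells, -0.87 in cNSF cells and -1.20 in fNSF cells. UBE2C encodes the ubiquitin-conjugating enzyme that works with the same APC/C, and its values overlapped or nearly met: 2471, 2465 and 2413 in PBS libraries against 2473, 2619 and 2753 after tBHP, 2462, 2388 and 2445 against 2477, 2728 and 3101 in cNSF, and 2390, 2349 and 2298 against 2262, 2103 and 2740 in fNSF. None of its log2 changes (0.093 in PBS cells, 0.18 in cNSF cells and 0.0049 in fNSF cells) passed, and each turned negative, to -0.047, -0.047 and -0.17, when the trend with transcript GC content and length was removed. SGO2, a shugoshin that protects centromeric cohesin, had 1461, 1662 and 1609 normalized counts in PBS libraries and 360, 549 and 463 after tBHP. SGO2 fell to 29% of its earlier mean there, with log2 changes of -1.80 in PBS cells, -1.80 in cNSF cells and -1.41 in fNSF cells. Its relative SGO1 changed far less, by -0.36 in PBS cells, -0.31 in cNSF cells and -0.25 in fNSF cells, of which the last did not pass. With the trend removed SGO1 had -0.11 in PBS cells and -0.13 in cNSF cells, and neither passed. PTTG1, which encodes securin, fell in PBS cells (-0.22, adjusted p = 0.0398) and had values of 0.036 and -0.039 in cNSF and fNSF cells. With the trend removed these were -0.17 and -0.20, and PTTG1 passed as a fall in all 3 pre-incubations. ESPL1, the cohesin-cutting separase that securin restrains, fell in all 3, by 0.34, 0.43 and 0.58 on the log2 scale. ESPL1 and PTTG1 had -0.60 and -0.34 in PBS cells with the trend removed.

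**Figure D2:**
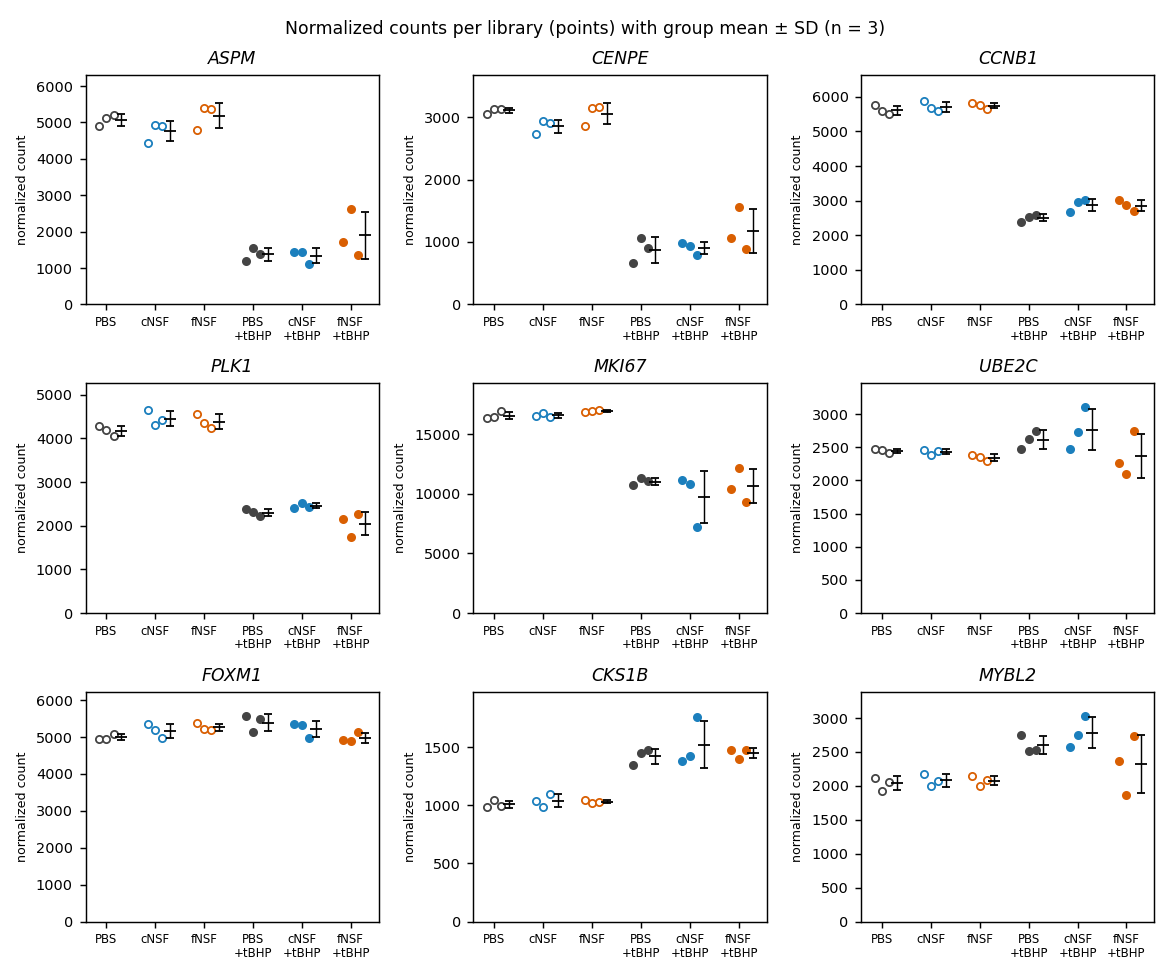
Normalized counts (y axis, from 0) of 9 genes in each of the 18 libraries by group, open points without and filled points after tBHP, with the group mean ± SD (n = 3) to the right. ASPM, CENPE, CCNB1, PLK1 and MKI67 are lower after tBHP with no overlap, CKS1B is higher with no overlap, and UBE2C and FOXM1 stay near their earlier level.

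The 10 genes of spindle motors and spindle-bound proteins fell together, all 10 in PBS and fNSF cells and 9 in cNSF cells. ASPM, a protein of spindle poles, had the largest fall of all 60 genes in each pre-incubation before removal of the GC and length trend, and after it in PBS cells only. It went from 4891, 5133 and 5207 normalized counts in PBS libraries to 1190, 1554 and 1381 after tBHP, from 4446, 4917 and 4912 to 1455, 1453 and 1104 in cNSF, and from 4802, 5398 and 5360 to 1705, 2624 and 1369 in fNSF. Its mean fell to 27.1%, 28.1% and 36.6% of the earlier level in PBS, cNSF and fNSF cells (log2 -1.89, -1.84 and -1.50, SE 0.17). Among the kinesins of the group, KIF20B and KIF18A had log2 changes of -1.48 and -1.29 in PBS cells, KIF11, the motor that pushes spindle poles apart, of -1.05, and KIF4A of -0.40. KIF2C, a kinesin that takes microtubules apart at centromeres, had small changes, -0.23 in PBS cells, -0.12 in cNSF cells and -0.20 in fNSF cells, and did not pass in cNSF cells. DLGAP5, a spindle protein that binds AURKA, fell by 1.67 in PBS cells, whereas TPX2, the activator of AURKA on the spindle, fell by only 0.25. NUSAP1 and GTSE1, which bind spindle microtubules, had log2 changes of -0.32 and -0.43. After removal of the trend KIF20B, KIF18A and KIF11 had -0.90, -0.80 and -0.63 in PBS cells and -0.86, -0.76 and -0.51 in cNSF cells. NUSAP1 then had -0.12 in PBS cells, and KIF2C had -0.35, -0.24 and -0.33 in PBS, cNSF and fNSF cells.

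Of the 7 genes of the spindle midzone and cytokinesis, all fell in PBS and cNSF cells and 6 in fNSF cells. ECT2, the exchange factor that switches on RHOA at the cleavage site, and ANLN, the scaffold of the contractile ring, had the largest falls in PBS cells, although KIF20A did with the GC and length trend removed (-0.97, against -0.84 for ANLN). ECT2 went from 2974, 3103 and 3284 to 1111, 1622 and 1395 normalized counts there (log2 -1.20) and ANLN from 11857, 12242 and 12334 to 4857, 5935 and 5369 (log2 -1.18). Neither gene had a library after tBHP that reached the level without it. PRC1, which bundles the midzone microtubules, had log2 changes of -0.50 in PBS cells, -0.56 in cNSF cells and -0.54 in fNSF cells. KIF20A, KIF23 and RACGAP1, which work at the midzone with AURKB and ECT2, fell by 0.91, 0.75 and 0.51 on the log2 scale, and KIF14 by 0.60. In fNSF cells KIF14 had a log2 change of -0.37 that did not pass (adjusted p = 0.0768). With the GC and length trend removed KIF14 had -0.19 in PBS cells, where it passed, and -0.16 in cNSF cells, where it did not (adjusted p = 0.0791). In the same values KIF14 had -0.13 in fNSF cells and ECT2 -0.76 in PBS cells.

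The 5 genes of chromosome structure fell in all 3 pre-incubations. MKI67 encodes Ki-67, the coat protein of mitotic chromosomes that serves as a marker of cycling cells. It had 16331, 16483 and 16922 normalized counts in PBS libraries and 10755, 11304 and 11052 after tBHP, 16542, 16816 and 16421 and 11130, 10869 and 7238 in cNSF, and 16859, 16934 and 17058 and 10396, 12188 and 9346 in fNSF. The third cNSF_tBHP library was the lowest of all, and the log2 changes were -0.59 in PBS cells, -0.79 in cNSF cells and -0.68 in fNSF cells. NCAPG and NCAPH, subunits of the same condensin complex, fell by 1.12 and 0.44 on the log2 scale in PBS cells, and the condensin ATPase SMC2 by 0.81. TOP2A, the topoisomerase that untangles sister chromatids, fell by 0.75. After removal of the trend TOP2A, SMC2 and NCAPG had -0.37, -0.37 and -0.73 in PBS cells and -0.34, -0.23 and -0.60 in cNSF cells, and SMC2 had -0.27 in fNSF cells.

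The 2 transcription factors of the list did not fall in any pre-incubation. MYBL2, the activating partner of MuvB, had 2122, 1923 and 2064 normalized counts in PBS libraries and 2757, 2516 and 2533 after tBHP, 2180, 1992 and 2077 and 2573, 2744 and 3024 in cNSF, and 2146, 2003 and 2086 and 2361, 1869 and 2731 in fNSF. It rose in PBS and cNSF cells (log2 0.35 and 0.41, adjusted p = 0.00779 and 0.00263) and did not pass in fNSF cells (0.14), where replicate 2 lay below the libraries without tBHP. Its transcript is among the richest in GC, and the calls ended when the GC and length trend was removed (log2 0.05 and 0.071, and 0.044 in fNSF cells). FOXM1, the late activator, had 4953, 4957 and 5094 normalized counts in PBS libraries and 5571, 5128 and 5483 after tBHP, 5344, 5193 and 4979 and 5344, 5330 and 4967 in cNSF, and 5385, 5209 and 5202 and 4935, 4884 and 5134 in fNSF. Its log2 changes of 0.11 in PBS cells, 0.011 in cNSF cells and -0.079 in fNSF cells did not pass, and with the trend removed they were -0.12, -0.21 and -0.20, of which the cNSF and fNSF values passed.

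Genes of the cell cycle outside the list gave the setting. Of 122 other mitosis genes, 77 fell and 7 rose in PBS cells, where 26.9% and 24.2% of all genes did (median log2 change -0.39), 78 fell and 7 rose in cNSF cells (-0.37), and 72 fell and 6 rose in fNSF cells (-0.31). The largest falls in PBS cells were those of DEPDC1 (-1.73), of HMMR (-1.69), which encodes the HA-binding spindle protein RHAMM, and of the MYB family gene MYBL1 (-1.57). The largest rises were those of LIN37 (0.90), a MuvB subunit needed for repression by DREAM, of MAD2L2 (0.56), which acts in DNA repair as well as on the APC/C, and of the kinetochore gene PMF1 (0.55). LIN37 was low, with 45.9 ± 5.17 normalized counts (SD, n = 3) before and 87.9 ± 19.6 after tBHP in PBS cells. Of 50 genes of DNA replication and S phase, 24 fell and 4 rose in PBS cells, beside the same shares of all genes, with a median of -0.19, against -0.71 for the 60 mitosis genes. POLE2 (-1.51), DBF4 (-1.31) and CDC7 (-1.06) had the largest falls, and LIG1 (0.36), PCNA (0.33) and POLA2 (0.18) the largest rises among the genes that passed. From the values of both lists the trend with GC content and length, described further on, was not removed. Its part in the differences between the lists and the 60 genes was not tested. Among the genes of cell cycle arrest shown here, CDKN1A rose from 5231 ± 228 to 43604 ± 4502 normalized counts in PBS cells (log2 3.06). BTG2 (3.09) and GADD45A (1.19) also rose, and CDKN1B (-0.031) and CDKN2A (0.23) did not pass. These 3 rises passed in cNSF and fNSF cells too.

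Since the genes fell together, their promoters were searched for the elements by which this class of genes is known to be controlled. Windows from 250 bases before to 50 bases after annotated starts (RefSeq, GRCh38.p14) were at hand for 52 of the 60 genes. AURKA, BIRC5, BUB3, FOXM1, RACGAP1, TPX2, TTK and UBE2C had none. The CHR was searched as TTTGAA or TTCGAA and the CCAAT box as CCAAT, each on either strand. A CHR stood in 40 of the 52 genes (76.9%, compared with 19.5% of 27305 genes with a window), a CCAAT box in 43 (82.7%, compared with 39.7%) and both in the same window in 33 (63.5%, compared with 7.85%). Of the 40 genes with a CHR 35 fell and 2 rose in PBS cells, and of the 12 without it 10 fell and 1 rose, with a median log2 change of -0.75 in either set. The median was -0.69 in the 43 genes with a CCAAT box and -1.04 in the 9 without it, and -0.63 in the 33 genes with both and -0.95 in the other 19. These differences were not tested. The 150 bases before the start are shown for 4 genes that fell and for both of the genes that rose most, with CHR and CCAAT letters in capitals (reversed as TTCAAA and ATTGG). CCNB2, PLK1, CDC20 and ASPM fell after tBHP, and CKS1B and MYBL2 rose in PBS cells.
CCNB2, chr15:59104996-59105145, + strand: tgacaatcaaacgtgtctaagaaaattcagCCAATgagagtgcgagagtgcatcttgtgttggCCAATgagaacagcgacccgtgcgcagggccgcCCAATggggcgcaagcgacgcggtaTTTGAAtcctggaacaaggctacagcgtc
PLK1, chr16:23678739-23678888, + strand: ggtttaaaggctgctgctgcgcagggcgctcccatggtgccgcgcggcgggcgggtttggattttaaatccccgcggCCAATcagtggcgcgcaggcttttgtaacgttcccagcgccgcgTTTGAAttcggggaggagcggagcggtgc
CDC20, chr1:43358831-43358980, + strand: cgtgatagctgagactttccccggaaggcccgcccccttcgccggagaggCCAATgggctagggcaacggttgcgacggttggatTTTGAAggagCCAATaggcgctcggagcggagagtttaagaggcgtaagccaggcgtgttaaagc
ASPM, chr1:197146670-197146819, - strand: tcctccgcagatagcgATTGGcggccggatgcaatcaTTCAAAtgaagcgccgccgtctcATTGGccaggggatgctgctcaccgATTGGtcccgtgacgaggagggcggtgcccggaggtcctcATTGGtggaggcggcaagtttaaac
CKS1B, chr1:154974531-154974680, + strand: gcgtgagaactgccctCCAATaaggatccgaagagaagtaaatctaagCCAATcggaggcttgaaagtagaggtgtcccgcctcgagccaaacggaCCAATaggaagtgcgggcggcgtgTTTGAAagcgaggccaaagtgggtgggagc
MYBL2, chr20:43666964-43667113, + strand: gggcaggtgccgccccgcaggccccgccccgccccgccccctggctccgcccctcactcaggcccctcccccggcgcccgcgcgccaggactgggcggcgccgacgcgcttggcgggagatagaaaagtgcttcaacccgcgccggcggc
In CCNB2 and PLK1 the CHR lay 29 bases before the start, and in CKS1B, which rose, it lay 30 bases before the start, with a CCAAT box upstream of it in all 3 genes. The MYBL2 stretch held neither motif. A match of letters is a description of the window and not a binding site.

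Transcript GC content went with the size of the change. The longest transcripts of the 60 genes had a median GC content of 43.2%, compared with 47.9% for all genes tested. Across the 60 genes the change in PBS cells rose with GC content (Spearman rho 0.708), as it did across all genes (0.509). The 20 genes with the lowest GC content, 34.2% to 40.8%, had a median log2 change of -1.15 in PBS cells, the middle 20 had -0.59 and the 20 highest, 48.1% to 60.5%, had -0.36. Within every GC class under 60% the median of the 60 genes lay below that of all genes, for instance -0.89 against -0.23 between 40% and 44% and -0.53 against 0.24 between 56% and 60%. When the trend with GC content and length was removed from every library, 54 of the 60 genes fell and 1 rose in PBS cells (30.8% and 26.5% of the genes tested), 55 and 1 in cNSF cells (29.8% and 26.4%) and 55 and 1 in fNSF cells (31.3% and 24.5%). The medians were then -0.56, -0.58 and -0.63, compared with -0.02 to -0.04 for all genes. AURKB, INCENP, HJURP and CDC25C, which had not passed in PBS cells, passed there as falls (-0.41, -0.39, -0.22 and -0.22), and CKS1B rose by 0.61. The calls in PBS cells that ended were the fall of SGO1 and the rises of CDC25B and MYBL2. In cNSF cells CDC25B, CDC25C, AURKB, INCENP, HJURP, PTTG1, KIF2C and FOXM1 passed as falls with the trend removed and had not passed before, and the calls of SGO1, KIF14 and MYBL2 ended. In fNSF cells CDC25C, UBE2C, PTTG1 and FOXM1 were added in the same way, and no call ended.

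**Figure D3:**
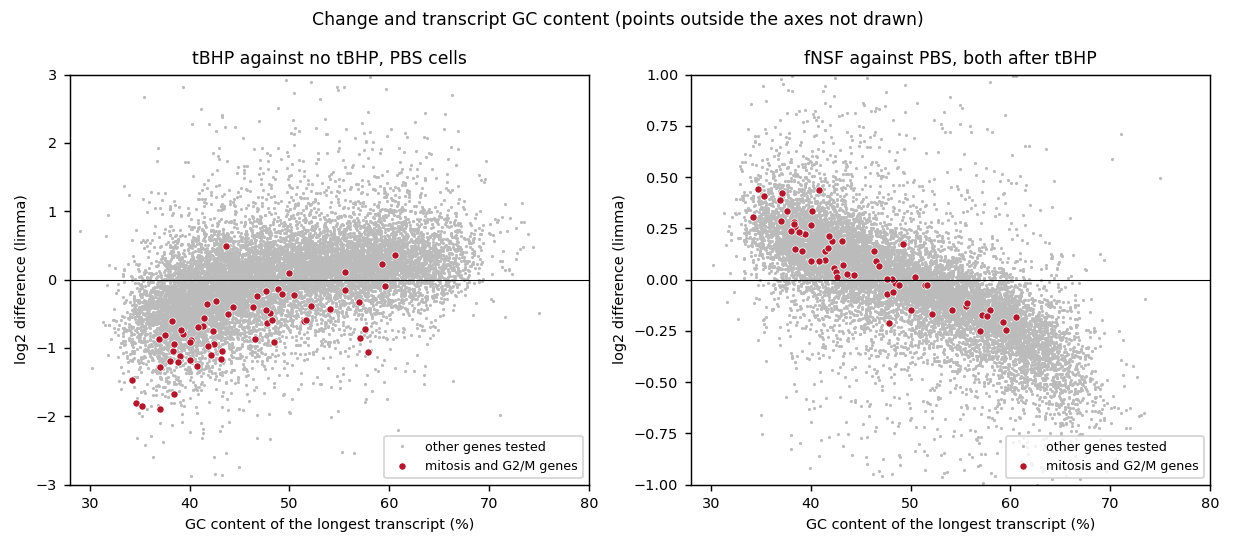
log2 difference (y axis, limma) against GC content of the longest transcript (x axis, %) for the 60 mitosis and G2/M genes (red) and other genes tested (grey), on the left for tBHP in PBS cells and on the right for fNSF against PBS after tBHP. On the left the red points lie mostly in the lower part of the grey cloud at their GC content, and on the right they follow it downward (Spearman rho -0.918).

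The second question was whether HA of either chain length altered these transcripts before the oxidant. None of the 60 genes passed in limma between cNSF and PBS, fNSF and PBS or cNSF and fNSF libraries without tBHP (0%, 0% and 0% of all genes tested passed), and edgeR and DESeq2 also called 0, where DESeq2 called 0.0219% of all genes between fNSF and PBS and otherwise 0%, as edgeR did throughout. None of the 60 had an unadjusted p under 0.05 in limma, which 0.921%, 0.796% and 1.51% of all genes had. The log2 differences of the 60 genes ran from -0.14 to 0.093 between cNSF and PBS, with a median of -0.016, from -0.062 to 0.097 between fNSF and PBS, with a median of 0.034, and from -0.18 to 0.094 between cNSF and fNSF, with a median of -0.035. Ranked by limma, NDC80 came first between cNSF and PBS (log2 -0.11, SE 0.093), FOXM1 between fNSF and PBS (0.074) and MAD2L1 between cNSF and fNSF (-0.14), all with an adjusted p of 1. PLK1 and KIF23 followed for cNSF against PBS (0.093 and -0.082), MAD2L1 and KIF20A for fNSF against PBS (0.10 and 0.061), and NDC80 and NCAPG for cNSF against fNSF (-0.15 and -0.13). After the GC and length trend was removed, NDC80, PLK1 and KIF23 had -0.06, 0.057 and -0.05 for cNSF against PBS, and MAD2L1, NDC80 and NCAPG had -0.061, -0.077 and -0.051 for cNSF against fNSF. All 18 libraries shared 1 estimate of the spread in these tests, and edgeR and DESeq2 were also fitted to all of them. Inside groups the median SD of the 60 genes was 0.0435 without tBHP and 0.145 after it. The shared estimate is thus wider than the spread without tBHP, and small differences could be missed. With only the cNSF and fNSF libraries without tBHP in the fit, 9 genes passed, all lower in cNSF (5.38% of all genes passed as lower): MAD2L1, NDC80, SGO2, KIF20B, ASPM, ANLN, ECT2, TOP2A and NCAPG, with a median GC content of 39%. Across the 60 genes the difference between cNSF and fNSF without tBHP rose with GC content (Spearman rho 0.756, against 0.554 across all genes), and its part in these calls was not tested.

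The last question was whether pre-incubation with HA changed these transcripts after tBHP. None of the 60 genes passed between cNSF and PBS (0% of all genes passed, smallest adjusted p of a member 0.497), between fNSF and PBS (0.139%, 0.0662) or between cNSF and fNSF (0%, 0.0981). At an unadjusted p under 0.05 in limma there were 3 higher and 0 lower genes in cNSF against PBS (3.78% and 4.86% of all genes), 15 higher and 6 lower in fNSF against PBS (11.7% and 11%) and 9 higher and 6 lower in cNSF against fNSF (15.6% and 16.7%). edgeR called 0 in each (0%, 0.263% and 0% of all genes). DESeq2 called 0, 3 and 7 of the 60 genes. Of the 12359, 11298 and 10767 genes to which it gave an adjusted p, it called 0.0728%, 3.99% and 7.37%. With no filter on low values, edgeR called 7 in fNSF against PBS and 8 in cNSF against fNSF (3.11% and 7.3% of 31441 genes).

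CCNB1, PTTG1 and CCNA2 had the smallest p between cNSF and PBS after tBHP, all higher in cNSF, with log2 differences of 0.20, 0.25 and 0.16 (limma adjusted p = 0.497, 0.513 and 0.567). For CCNB1 the 3 cNSF_tBHP libraries, given above, all exceeded the 3 PBS_tBHP libraries. The genes named here were picked for their small p, so a separation of their libraries adds no support. CDK1, TTK and NDC80 had the smallest p between fNSF and PBS, all higher in fNSF. CDK1 had 1050, 1289 and 1173 normalized counts in PBS_tBHP, 1193, 1296 and 1347 in cNSF_tBHP and 1506, 1742 and 1356 in fNSF_tBHP, against 2128 ± 50.8 in PBS and 2162 ± 38.2 in fNSF without tBHP (SD, n = 3). The fNSF_tBHP libraries did not overlap those of the other groups after tBHP, but came close to cNSF_tBHP (1356 against 1347). The log2 difference of CDK1 from PBS_tBHP was 0.39 (SE 0.087, limma adjusted p = 0.0662, DESeq2 adjusted p = 0.00341). TTK and NDC80 differed by 0.44 and 0.34 (limma adjusted p = 0.0948 and 0.0981, DESeq2 adjusted p = 0.0188 and 0.0272). Between cNSF and fNSF, SGO2 was lower in cNSF (-0.58), and CDC20 and PLK1 were higher (0.32 and 0.27), each with a limma adjusted p of 0.0981. DESeq2 called SGO2, CDC20 and PLK1 here (adjusted p = 0.0251, 0.036 and 0.0398), and also CCNF, TTK, AURKB and ASPM. Once the GC and length trend was removed, the differences between fNSF and PBS were 0.10 for CDK1, 0.25 for TTK and 0.11 for NDC80, and those between cNSF and fNSF were -0.26 for SGO2, 0.054 for CDC20 and 0.094 for PLK1. PTTG1 had 0.16 between cNSF and PBS.

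These differences followed transcript GC content closely. Across the 60 genes the difference between fNSF and PBS after tBHP fell with GC content (Spearman rho -0.918, against -0.745 across all genes), and that between cNSF and fNSF rose with it (0.928, against 0.773). All 20 genes of lowest GC content were higher in fNSF than in PBS libraries after tBHP (median log2 difference 0.28), and 17 of the 20 genes of highest GC content were lower (median -0.14). With the trend of each library with GC content and length removed, the median differences of the 60 genes were 0.024 for cNSF against PBS, -0.0053 for fNSF against PBS and 0.046 for cNSF against fNSF, and none passed. Replicate 2 of fNSF_tBHP stood farthest out: its 60 genes had a median log2 level of -0.49 relative to the libraries without tBHP, where the other 8 libraries after tBHP had -0.78 to -0.62, and its mitochondrial share was the highest. Leaving out fNSF_tBHP replicate 3 instead let 27 genes pass between fNSF and PBS, 19 higher with a median GC content of 38.3% and 8 lower with 57.8%, and 27 pass between cNSF and fNSF (29.4% and 40.8% of all genes). With any other library left out, 0 or 1 genes passed in the first of these comparisons and 0 in the second.

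**Figure D4:**
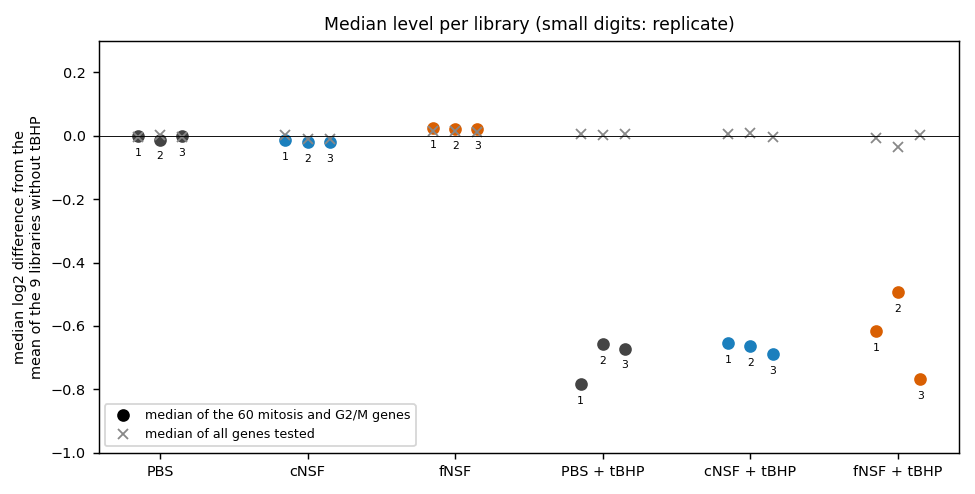
Median log2 difference of the 60 genes (coloured points) and of all genes tested (grey crosses) from the mean of the 9 libraries without tBHP (y axis) in each library by group, with the replicate number under each point. The 60 genes lie at -0.78 to -0.49 after tBHP while all genes stay near 0, and fNSF_tBHP replicate 2 is the highest.

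Whether the response to tBHP itself differed between pre-incubations was tested as an interaction. In limma 0 of the 60 genes passed for cNSF minus PBS, fNSF minus PBS or cNSF minus fNSF (0%, 0% and 0% of all genes), while 2, 6 and 4 genes had an unadjusted p under 0.05 (4.06%, 6.88% and 3.89% of all genes). edgeR and DESeq2 called 0 of the 60, and of all genes DESeq2 called 0.0438% for fNSF minus PBS and otherwise both called 0%. CDK1 had the smallest p for fNSF minus PBS, with a response that was less negative by 0.37 (SE 0.12, limma adjusted p = 0.667). FOXM1 and NDC80 came next, with differences of -0.19 and 0.30. For cNSF minus PBS the smallest p belonged to NDC80, PTTG1 and CCNB1 (0.29, 0.25 and 0.18, adjusted p = 0.999 for each), and for cNSF minus fNSF to CDC20, CCNF and BIRC5 (0.33, 0.31 and 0.24, adjusted p = 0.71 for each). After removal of the GC and length trend CDK1, FOXM1 and NDC80 had 0.10, -0.08 and 0.10 for fNSF minus PBS, NDC80 and CCNB1 0.18 and 0.10 for cNSF minus PBS, and CDC20 and CCNF 0.11 and 0.17 for cNSF minus fNSF.

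Some of the genes share exon bases with other annotated genes. Of the 60 genes, 22 overlap an exon of another gene, 19 of them one on the opposite strand, and the library kit does not mark strand, so reads in those stretches cannot be assigned to 1 strand. Among these are PLK1, ANLN, CCNA2, HJURP, SGO2, PRC1, KIF2C and FOXM1. Whether reads in those stretches were counted for either gene was not examined.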

How the data were processed

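Poly-A RNA of IMR90 cells was sequenced by the authors as single-end reads of 100 nt from TruSeq V2 libraries, a kit that does not mark strand. The submitters' processing notes name Trimmomatic 0.32, STAR 2.5.2b, featureCounts of Subread 1.5.0-p3 and the build GRCh38.p7. The deposited signal is a gene's read count scaled by a size factor that DESeq2 set for each library, and 100% of the values were whole reads (tolerance 0.01 of a read, largest deviation 5.3e-05), so reads could be recovered. These values are called normalized counts. The deposited table also gives a p-value, a q-value and a rank per gene from the authors' own test, which were not used.

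A pseudocount of 1 was added before the log2 transform, which understates changes of low genes, and limma 3.58.1 in R 4.3.3 fitted 1 coefficient to each group with a mean-variance trend. Tests were two-sided, with Benjamini-Hochberg adjustment over the 13686 genes tested and a threshold of 0.05. There were 9 comparisons and 3 interactions. The alternatives were pseudocounts of 0.1 and 5, a filter at a mean of 50 or none, median rescaling, quantile normalization, a replicate block, edgeR 4.0.16 (TMM), DESeq2 1.42.0, only the compared groups, removal from every library of its trend with the GC content and length of the longest transcript in GENCODE release 29 (natural splines of 5 degrees of freedom, 12819 genes or 93.7%, with all 60 members), and each library left out in turn. Chosen after seeing the data were edgeR with no filter and removal of that trend within conditions. The code for the tests was checked on simulated data.

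The members, roles and lists were chosen with earlier results of these data known. In each role group the genes with the highest and the lowest change and the highest mean were named first, and in other comparisons the 3 with the smallest p. The remaining members are named to complete their group, and those printed for single alternatives were chosen after their values were seen. No replicate pair agreed within sampling noise (chi-square per degree of freedom 1.45 to 64.8). A gene of the arrest list is not reported here.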

Additional observations from a re-analysis of the deposited data

Results flagged for a closer look

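FOXM1 after tBHP lay on opposite sides of its earlier values in PBS and fNSF cells. The 3 PBS_tBHP libraries were all above the 3 PBS libraries (log2 change 0.11) and the 3 fNSF_tBHP libraries all below the 3 fNSF libraries (-0.079), a difference of 0.187 that did not pass as an interaction (limma adjusted p = 0.667). With the GC and length trend removed both changes were negative, at -0.12 and -0.20. TOP2A lay on opposite sides of PBS in the HA groups without tBHP. Its cNSF libraries (11129, 11191 and 11366 normalized counts) were all below and its fNSF libraries (11994, 12039 and 12084) all above the PBS libraries (11535, 11678 and 11819), and the log2 difference between cNSF and fNSF was -0.101, which did not pass in limma with all libraries (adjusted p = 1) and passed with only the compared groups. With the trend removed TOP2A had -0.0023 for cNSF against PBS, 0.016 for fNSF against PBS and -0.018 for cNSF against fNSF. Of 60 genes read for such opposite patterns, these are the 2 that showed one.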

How the results depend on the processing

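Over 45 pairs of same-numbered libraries of different groups the deviations correlated with a median of 0.034 (-0.119 to 0.333), and 7 were over 0.1. Over 90 pairs with different numbers the median was -0.017 (-0.434 to 0.419), and 5 were over 0.1. A weak pairing by replicate number is thus possible, and it was not tested. With a replicate block, 3 genes rose and 51 fell in PBS cells, 2 and 49 in cNSF, 1 and 52 in fNSF, and 1 gene, CDK1, was higher in fNSF than in PBS after tBHP (0.373% of all genes were). The counts of falling genes stayed within 1.5 times under every alternative run. With single libraries left out, 48 to 52 fell and 2 to 3 rose in PBS cells, 48 to 50 and 2 to 4 in cNSF, and 50 to 53 and 1 to 2 in fNSF cells. The 4 in cNSF cells came without fNSF_tBHP replicate 2 or 3, and the 2 in fNSF cells without fNSF_tBHP replicate 2. With the GC and length trend removed, and with the block added to it, 1 gene rose in PBS and 1 in cNSF cells. Removed within conditions, it let 3 rise in fNSF cells, and edgeR let 4 rise in cNSF cells. Of the calls between pre-incubations, 9 appeared for cNSF against fNSF without tBHP with only the compared groups. For fNSF against PBS after tBHP, DESeq2 gave 3 and edgeR with no filter 7, and leaving out single libraries gave 0 to 27. For cNSF against fNSF after tBHP these were 7, 8 and 0 to 27, the 27 in each case without fNSF_tBHP replicate 3. The other comparisons gave 0 under every alternative. UBE2C turned from positive to -0.047 in PBS, -0.047 in cNSF and -0.17 in fNSF cells, and FOXM1 to -0.12 in PBS and -0.21 in cNSF cells, with the GC and length trend removed, with or without the block. CDC25B likewise turned to -0.049, -0.10 and -0.051 in PBS, cNSF and fNSF cells, and PTTG1 to -0.17 in cNSF cells, when the trend alone was removed. FOXM1 in cNSF cells was also -0.045 under quantile normalization and -0.020 with the trend removed within conditions. Leaving out 1 library turned FOXM1 in cNSF cells to between -0.016 and -0.0049 in 3 of its values (range -0.016 to 0.046), and UBE2C in fNSF cells to -0.0098 and -0.10 (range -0.10 to 0.086). The cause of these changes was not tested.

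Each group had 3 libraries, and the median SD of the 60 genes was 0.145 after tBHP against 0.0435 before it, which limits the comparisons between pre-incubations after tBHP. No library without tBHP was collected at the later time.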

Other observations

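Among the 122 other mitosis genes, 20 of the 27 of the spindle, centrosome and cytokinesis fell after tBHP in PBS cells, 25 in cNSF and 22 in fNSF cells, and none rose in limma. In PBS cells 26.9% of all genes tested fell and 24.2% rose. Of 23 genes of chromosome structure, which include other condensin and cohesin genes, 17 fell and 1 rose in PBS cells. Of 26 centromere and kinetochore genes outside the 60, 13 fell and 2 rose there. The 23 genes of the APC/C and the checkpoint held 14 that fell and 3 that rose. Of the 10 genes of DREAM and MuvB, 6 fell and 1, LIN37, rose in PBS cells. The median log2 changes of these lists in PBS cells lay between -0.57 for the spindle list and -0.22 for the centromere list, all closer to 0 than the -0.71 of the 60 genes. These values still hold the GC and length trend, whose part in the differences was not tested. The 60 genes and the lists were chosen with earlier results of these data known.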
